A study of Homo sapiens with 6 samples.

Results

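Matrix metalloproteinases (MMPs) and their tissue inhibitors (TIMPs) were followed in PC3 cells, a prostate cancer line derived from a bone metastasis. The set held 9 genes chosen by name from 23285 in the count table: the proteases *MMP1*, *MMP2*, *MMP9*, *MMP13*, *MMP14* and *MMP15* and the inhibitors *TIMP1*, *TIMP2* and *TIMP3*. All 9 were listed, and 7 had enough reads to be tested among 15876 genes, *MMP2* and *TIMP3* being too low. Messenger RNA was sequenced in 6 libraries made 72 h after transfection, 3 with non-specific siRNA and 3 with paxillin-targeted siRNA. Both groups were the same line in the same medium with serum, and neither siRNA's sequence is given in the labels, so an effect of losing paxillin and another effect of that siRNA cannot be told apart. The labels number the libraries 1 to 3 in each group without saying that they came from separate cultures, and p-values therefore measure only the spread between these libraries, which may be technical.

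MMPs are zinc-dependent endopeptidases that are made as inactive precursors and cut collagens, gelatins and other matrix and surface proteins. *MMP1* and *MMP13* encode secreted collagenases that cut fibrillar collagen, *MMP2* and *MMP9* encode the gelatinases, and *MMP14* and *MMP15* encode membrane-anchored enzymes, MT1-MMP and MT2-MMP. TIMPs bind active MMPs and block them, while TIMP2 also bridges MT1-MMP and the MMP2 precursor so that the latter can be activated at the cell surface. Paxillin is an adaptor of focal adhesions, sites where cells hold the matrix and near which membrane-anchored MMPs can act.

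Paxillin transcript was low in every library given its siRNA. *PXN* (chromosome 12) stood at 834.8, 854.0 and 718.5 CPM (counts scaled to a common library size, with TMM factors) with non-specific siRNA and at 59.2, 55.7 and 91.7 CPM with paxillin siRNA, in replicate order. It fell by 3.54 ± 0.23 on the log2 scale (SE; edgeR adjusted p = 0.00613, and 0.0819 and 0.0762 without non-specific siRNA replicate 1 or 2). Libraries of the same number shared deviations from their group means, so the comparison is given both with group as the only term and with the replicate number as a block. Libraries held 22209768 to 33627627 reads, and replicate 3 was the shallowest in both groups. The keratin genes *KRT8* and *KRT18*, *VIM* and *CD44* all averaged above 1 FPKM (the authors' level per transcript length and library size). Of 8 fibroblast and 8 leukocyte markers, 7 of each averaged below 1 FPKM, as did 5 of 6 endothelial ones. Summed fibroblast markers spanned 58.9 to 128 CPM with non-specific and 65.5 to 129 CPM with paxillin siRNA, leukocyte markers 35.5 to 50.7 and 56.3 to 88.9 CPM, and endothelial markers 79.3 to 116 and 137 to 150 CPM. With the replicate block the leukocyte markers *CD68* and *LYZ* and the endothelial marker *KDR* were higher and *VIM* lower. No marker was at 0 in all 6 libraries, and the part of these genes in the results below was not tested. In bulk RNA, fewer cells making a transcript and less of it per cell cannot be told apart.

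RefSeq promoter sequence (GRCh38.p14) was matched for 4 of the 9 genes, *MMP14*, *MMP15*, *TIMP1* and *TIMP3*, and was not used for *MMP1*, *MMP2*, *MMP9*, *MMP13* and *TIMP2*. Shown here are the 250 bases before the start of *TIMP1*, the inhibitor whose level differed most between the groups, and of *MMP14*, the most abundant protease of the set, whose level differed little. They lie on the plus strand at chrX:47582186-47582435 and chr14:22836335-22836584. Capitals mark matches on either strand to a GC box bound by Sp1 (GGGCGG) and to the AP-1-like letters TGAGTAA, and no marked matches overlap.
TIMP1: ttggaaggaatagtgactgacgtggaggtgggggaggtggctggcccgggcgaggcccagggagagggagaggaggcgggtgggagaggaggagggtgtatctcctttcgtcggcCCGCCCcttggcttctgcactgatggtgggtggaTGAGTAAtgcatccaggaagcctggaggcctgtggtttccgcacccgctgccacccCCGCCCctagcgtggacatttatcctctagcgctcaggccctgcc
MMP14: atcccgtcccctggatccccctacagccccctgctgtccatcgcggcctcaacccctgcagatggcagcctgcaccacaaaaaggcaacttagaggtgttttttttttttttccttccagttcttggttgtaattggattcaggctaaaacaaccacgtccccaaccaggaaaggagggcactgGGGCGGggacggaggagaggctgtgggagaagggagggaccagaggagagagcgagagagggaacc
Both stretches lack the AP-1 consensus (TGANTCA), the TATA box when spelled as TATAAA, the STAT motif (TTCNNNGAA) and the interferon-stimulated response element (ISRE). The *TIMP1* stretch held TGAGTAA once, starting 101 bases before the start of the gene, and 2 GC boxes, while that of *MMP14* held 1 GC box. Among 27305 promoters of that length, 2.25% held TGAGTAA, 42.3% a GC box, 6.6% the AP-1 consensus, 11.1% the TATA box, 6.78% the STAT motif and 3.07% an ISRE. These are matches of letters only.

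Per length, the inhibitors *TIMP1* and *TIMP2* had the highest mean levels of the set, while *TIMP3* was second lowest. *TIMP1* averaged 64.5 ± 18.4 FPKM with non-specific siRNA (SD, n = 3), *TIMP2* 49.1 ± 11.4, *MMP14* 25.2 ± 1.83 and *MMP1* 22.1 ± 10.9 FPKM. *MMP13* followed at 6.59 ± 3.25 FPKM and *MMP15* at 0.788 ± 0.0614 FPKM. *MMP9* averaged 0.119 ± 0.0775 FPKM, *TIMP3* 0.0112 ± 0.00603 and *MMP2* 0.00629 ± 0.00545 FPKM. The spreads of *TIMP1* and *TIMP2* overlapped, as did those of *MMP14* and *MMP1* and those of *TIMP3* and *MMP2*, while the other neighbours in this order lay further apart than their SDs. With paxillin siRNA the same order of genes was found, at 96.2 ± 14.5 FPKM for *TIMP1*, 49.6 ± 7.96 for *TIMP2*, 22.1 ± 1.61 for *MMP14* and 10.3 ± 7.15 FPKM for *MMP1*. There the spreads of *TIMP1* and *TIMP2* lay apart, as did those of *MMP14* and *MMP1*, while *MMP1* overlapped *MMP13*, at 3.72 ± 2.02 FPKM, and *TIMP3* overlapped *MMP2*.

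**Figure D1:**
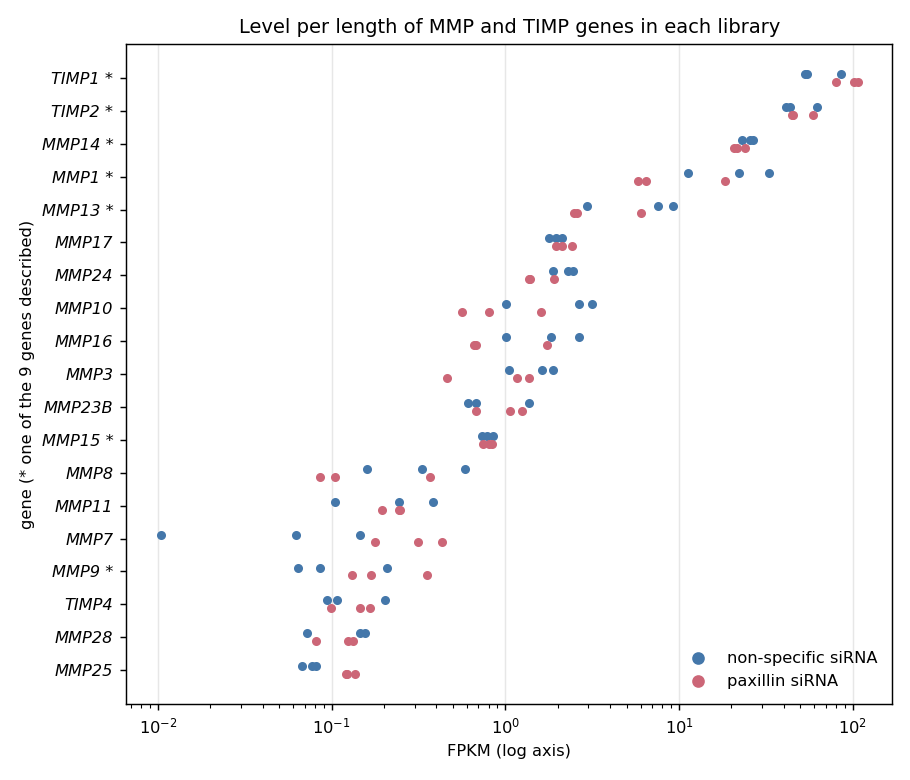
Level per length (FPKM, log axis) of each MMP and TIMP gene with a mean of at least 0.05 FPKM, 1 point per library, non-specific siRNA in blue and paxillin siRNA in red, with the described genes starred. *TIMP1*, *TIMP2*, *MMP14*, *MMP1* and *MMP13* lie above all other genes of both families by mean level, and the points of *MMP1* spread from 5.84 to 33.0 FPKM.

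None of the 7 tested genes passed over all genes with group as the only term (edgeR quasi-likelihood test, adjusted p under 0.05), where 0.882% of all genes were called higher and 0.302% lower. At an unadjusted p under 0.05, 1 of the 7 passed, *TIMP1*, against 22.5% of all genes, and DESeq2 called that gene alone. With the replicate block, *MMP1* and *MMP13* were lower and *MMP9* and *TIMP1* higher, against 11.7% of all genes called higher and 10.7% lower there. *MMP14*, *MMP15* and *TIMP2* passed in neither fit. The median log2 fold change of the 7 was 0.09, against 0 for all genes tested.

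**Figure D2:**
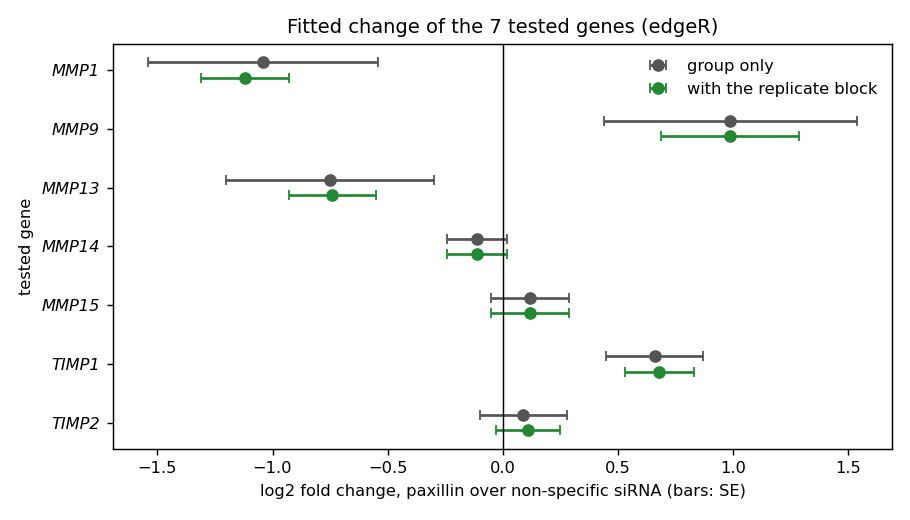
Fitted log2 fold change of paxillin over non-specific siRNA for the 7 tested genes, with SE bars, for the fit with group only (grey) and with the replicate block (green). The estimates lie close together in both fits, and the SE of *MMP1* is 0.50 without and 0.19 with the block.

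*MMP1*, the interstitial collagenase, was lower with paxillin siRNA once replicate numbers were paired. In the non-specific siRNA libraries it measured 146.8, 77.7 and 213.9 CPM, in replicate order. With paxillin siRNA it was 41.2, 44.9 and 127.4 CPM. The groups overlap, because replicate 3 of the paxillin group stands above replicate 2 of the other, while within each pair of the same number the paxillin library is lower. The ratios within pairs were 0.281, 0.578 and 0.596. The fitted log2 fold change was -1.04 ± 0.50 (SE; edgeR adjusted p = 0.265) with group only and -1.12 ± 0.19 (adjusted p = 0.00192) with the block, a 2.17-fold difference. With the block *MMP1* was also called lower when any 1 pair was left out, at -0.78 to -1.31. Without paxillin siRNA replicate 3 and without a block, it was lower at -1.77 (adjusted p = 0.0245), where 7.88% of all genes were called lower. With any other single library left out it was not called, at -0.65 to -1.34 (adjusted p = 0.236 to 0.594).

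*MMP13*, collagenase 3, followed the same course at a lower level. It measured 57.9, 24.2 and 68.4 CPM with non-specific and 20.6, 20.6 and 48.2 CPM with paxillin siRNA. Replicate 2 of the non-specific group lies far below the other 2 of that group and close to paxillin replicates 1 and 2. Paxillin replicate 3 stands above it, so the groups overlap. Within pairs, the log2 ratios were -1.49, -0.24 and -0.50. The fitted value was -0.75 ± 0.45 (adjusted p = 0.355), and -0.74 ± 0.19 with the block (adjusted p = 0.0178), where the gene was no longer called without pair 1 (-0.38, adjusted p = 0.21). Both collagenases were lower in all 3 pairs, a pattern shared by 28.8% of all genes tested.

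*MMP9*, gelatinase B, was close to the limit of what these libraries could measure. It was counted with 12, 33 and 10 reads in the non-specific and 32, 68 and 16 reads in the paxillin siRNA libraries, which is 0.359, 1.09 and 0.473 CPM against 0.987, 2.19 and 0.728 CPM. Replicate 2 was the highest library of both groups, and every paxillin library lay above the non-specific one of its number, which also held for 29.3% of all genes. The log2 fold change was 0.99 ± 0.55 (edgeR adjusted p = 0.328) and 0.99 ± 0.30 with the block (adjusted p = 0.0336). The call with the block was lost without pair 1 or pair 2 (adjusted p = 0.258 and 0.172). *MMP2*, gelatinase A, had 0, 3 and 2 reads with non-specific and 1, 2 and 2 reads with paxillin siRNA. No difference in *MMP2* was detectable at this depth, where a value of 0 allows up to 3 reads, or 0.0898 CPM in non-specific siRNA replicate 1.

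The membrane-anchored proteases differed by less than their spread. *MMP14* measured 294.9, 248.2 and 278.0 CPM with non-specific and 238.4, 258.2 and 262.9 CPM with paxillin siRNA. Its log2 fold change was -0.11 ± 0.13 (edgeR adjusted p = 0.647, and 0.591 with the block), and its pairs went in both directions, at -0.31, 0.06 and -0.08. *MMP15* measured 8.11, 8.15 and 9.22 CPM against 9.41, 10.4 and 8.05 CPM. Its log2 fold change was 0.12 ± 0.17 (edgeR adjusted p = 0.697, and 0.658 with the block).

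*TIMP1*, an inhibitor of most soluble MMPs, was the only 1 of the 9 whose groups did not overlap in CPM. It measured 127.7, 120.5 and 193.4 CPM with non-specific siRNA and 259.8, 198.8 and 237.1 CPM with paxillin siRNA. The highest non-specific library lay just below the lowest paxillin one, and 13.6% of all genes tested had their 3 paxillin libraries above all of the other group. Within pairs it was 2.04, 1.65 and 1.23 times as high, in replicate order. The log2 fold change was 0.66 ± 0.21 (edgeR adjusted p = 0.128), and 0.68 ± 0.15 with the block (adjusted p = 0.00801), a 1.60-fold difference. DESeq2 gave an adjusted p of 0.0432, where 4.93% of all genes were called higher. The call with the block was lost without pair 1 (0.50, adjusted p = 0.16) and without pair 2 (0.66, adjusted p = 0.0541). The two-sided p of the exact permutation test was 0.1, below which 3 against 3 cannot go.

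*TIMP2*, which takes part in both the inhibition and the activation of MMP2, was close to level between the groups. It measured 444.1, 424.4 and 614.3 CPM with non-specific and 488.2, 491.6 and 603.7 CPM with paxillin siRNA. Replicate 3 was the highest library in both groups. The log2 fold change was 0.09 ± 0.19 (edgeR adjusted p = 0.802, and 0.624 with the block), with a sign that turned in 2 of the alternatives. *TIMP3*, the matrix-bound inhibitor, had 4, 4 and 6 reads with non-specific and 9, 7 and 2 with paxillin siRNA and was not tested.

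**Figure D3:**
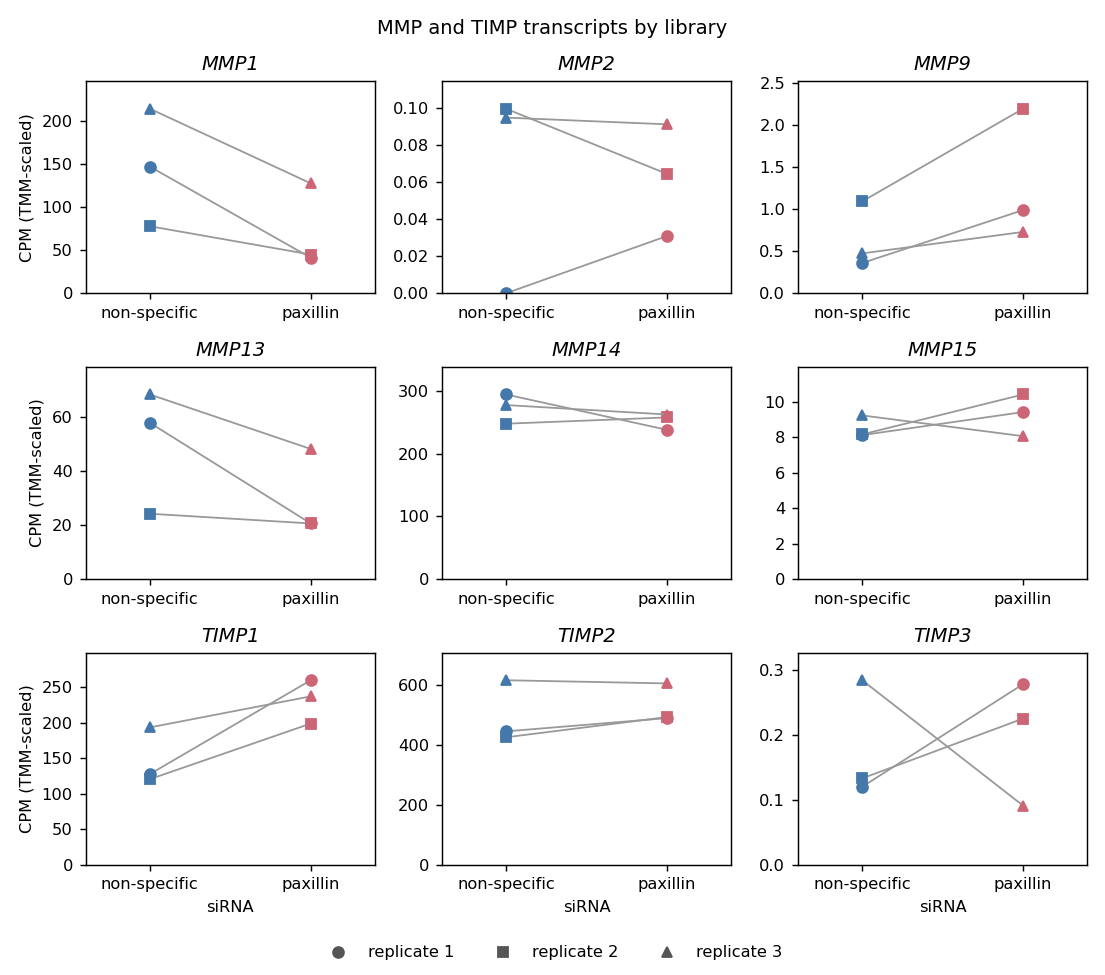
TMM-scaled CPM of the 9 genes in each library, with a separate linear axis from 0 for each gene and lines joining libraries of the same replicate number. All 3 lines slope down for *MMP1* and *MMP13* and up for *MMP9* and *TIMP1*, while those of *MMP14*, *MMP15*, *TIMP2*, *MMP2* and *TIMP3* go both ways.

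Ratios of protease to inhibitor levels per length are given as a description, with no test. *MMP1* over *TIMP1* stood at 0.402, 0.212 and 0.386 with non-specific siRNA, against 0.0547, 0.081 and 0.181 with paxillin siRNA. These groups did not overlap, although those of *MMP1* alone did. For *MMP14* over *TIMP1* the values were 0.486, 0.437 and 0.301 against 0.194, 0.271 and 0.234, again without overlap, although *MMP14* alone overlapped. Both ratios share *TIMP1* and are not separate results. The groups of *TIMP1* alone did not overlap in CPM. In FPKM its paxillin siRNA replicate 2, at 79.7, lay below non-specific siRNA replicate 3, at 85.7. *MMP13* over *TIMP1* overlapped, at 0.138, 0.0559 and 0.108 against 0.0235, 0.0325 and 0.0593. The pair that acts on MMP2 precursor, *MMP14* over *TIMP2*, overlapped at 0.612, 0.557 and 0.413 against 0.461, 0.478 and 0.406.

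**Figure D4:**
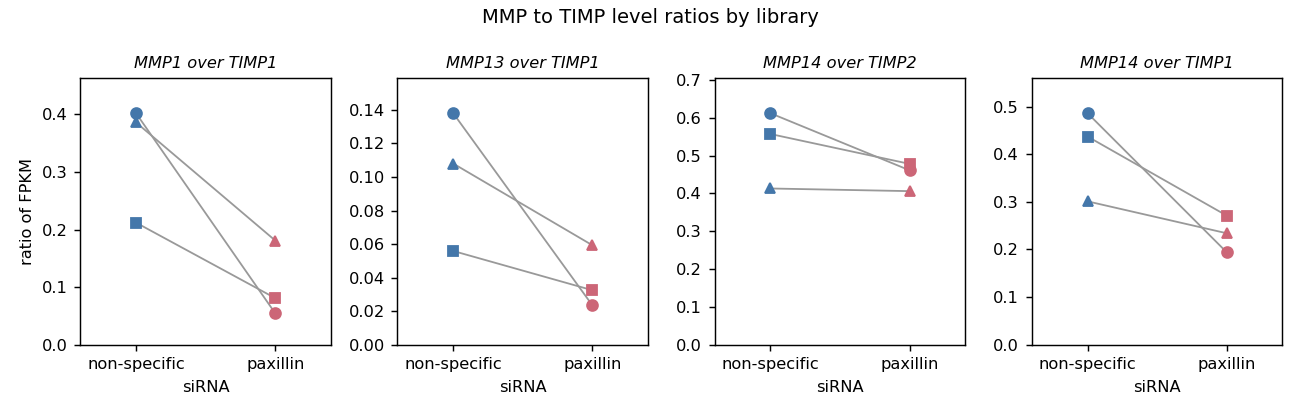
Ratio of FPKM of an MMP to that of a TIMP in each library, on linear axes from 0, with lines joining libraries of the same replicate number. The paxillin siRNA points lie below all non-specific ones for *MMP1* over *TIMP1* and *MMP14* over *TIMP1* while the groups overlap for the other 2 ratios.

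*MMP1* and *MMP13* share a stretch of chromosome 11 with 7 other MMP genes whose listed starts lie within 1 Mb (hg19). *MMP1* is listed at 102654407 to 102714342, a locus it shares with *MMP3* and *LOC100288077*, and *MMP13* at 102813721 to 102826463. Of the 9 genes there, 6 were tested, and none passed with group only. With the block, *MMP8*, *MMP10*, *MMP1* and *MMP13* were lower and *MMP7* higher, against 10.7% of all genes called lower and 11.7% higher there. *MMP10*, stromelysin 2, measured 14.8, 5.80 and 17.0 CPM with non-specific and 3.33, 4.66 and 9.19 CPM with paxillin siRNA. Its log2 fold change was -1.13 ± 0.47 (edgeR adjusted p = 0.211), and -1.11 with the block (adjusted p = 0.0138). *MMP3*, stromelysin 1, whose reads may be hard to part from those of the similar *MMP10*, stood at -0.61 with the block (adjusted p = 0.142). *MMP7*, matrilysin, had 15, 1 and 4 reads against 46, 18 and 22 (adjusted p = 0.123, and 0.00338 with the block). *MMP12* had at most 1 read in any library, and *MMP20* and *MMP27* had 0.

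**Figure D5:**
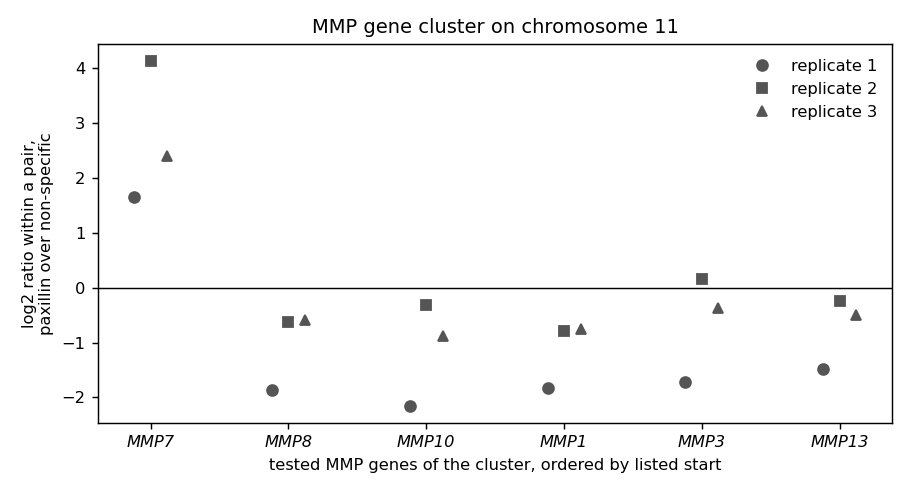
Log2 ratio of paxillin over non-specific siRNA CPM within each pair of the same replicate number, for the 6 tested MMP genes of the chromosome 11 cluster in order of their listed start. Replicate 1 gives the lowest value for each gene, and *MMP7* alone lies above 0 in all 3 pairs, its replicate 2 resting on 1 read in the non-specific library.

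Of the other 18 MMP and TIMP genes, 12 were tested and 0 passed with group only in edgeR, 4 having an unadjusted p under 0.05. With the block 4 were lower, *MMP8*, *MMP10*, *MMP16* and *MMP24*, and *MMP7* and *MMP25* were higher, the rest passing in neither direction. Over all genes tested, 22.5% had such an unadjusted p, and 10.7% were lower and 11.7% higher with the block. *MMP17*, a membrane-anchored MMP with the highest mean FPKM of these over all 6 libraries, though not over the non-specific ones alone, measured 11.5 ± 0.558 and 13.8 ± 1.83 CPM (SD, n = 3; edgeR adjusted p = 0.364). *MMP24*, another membrane type, measured 28.8 ± 4.05 and 21.5 ± 3.24 CPM (edgeR adjusted p = 0.19, and 0.0357 with the block). *MMP16*, MT3-MMP, stood at 35.0, 20.6 and 49.4 against 13.5, 13.4 and 34.3 CPM (edgeR adjusted p = 0.327, and 0.00433 with the block).

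Genes that bear on MMP action were taken from 5 further lists. Of 10 tested genes of plasminogen activation, which can start the activation of MMP precursors, *PLAT* and *PLG* were among those called with the block. A further gene of this list, called with group only, is not reported here. With the block, 11.7% of all genes tested were higher and 10.7% lower. *PLAT*, the tissue-type plasminogen activator, measured 228.3, 271.9 and 312.3 CPM with non-specific and 93.1, 92.0 and 196.6 CPM with paxillin siRNA. It was lower in all 3 pairs, as were 28.8% of all genes tested. Its log2 fold change was -1.09 ± 0.31 (SE, edgeR adjusted p = 0.103, and 0.000725 with the block). *PLG*, plasminogen itself, was close to 1 CPM and higher with the block (edgeR adjusted p = 0.197, and 0.0398 with the block).

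ADAM and ADAMTS proteases, relatives of the MMPs of which several are inhibited by *TIMP3*, had 0 of 20 tested genes called with group only in edgeR, 8 having an unadjusted p under 0.05. With the block 8 were higher and 1, *ADAMTS5*, lower. For comparison, 22.5% of all genes tested had such an unadjusted p, while 11.7% were higher and 10.7% lower with the block. With group only, the 20 genes had a median of 0.42 on the log2 scale, against 0 for all genes. *ADAM15* measured 221.1, 243.3 and 265.1 CPM with non-specific and 332.3, 324.7 and 312.0 CPM with paxillin siRNA (edgeR adjusted p = 0.129, and 0.0441 with the block). Its paxillin libraries lay above all of the other group, as did those of 13.6% of all genes tested. *ADAM9* was at 186.1 ± 38.3 and 220.5 ± 40.7 CPM (edgeR adjusted p = 0.492) and *ADAMTS1* at 233.3 ± 41.1 and 177.8 ± 61.6 CPM (edgeR adjusted p = 0.393).

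Of 19 tested genes for the activation, docking and clearance of MMPs, 0 were called with group only in edgeR (4 at an unadjusted p under 0.05). With the block 3 were higher and 2 lower. Over all genes tested, 22.5% had such an unadjusted p, and 11.7% were higher and 10.7% lower with the block. *FURIN* and *PCSK7*, proprotein convertases, a class that cuts the precursors of membrane-type MMPs, were both higher with the block (adjusted p = 0.0172 and 0.0225), as was *TFPI2*, while *ITGAV* and *CAV1* were lower. *ITGB1*, an integrin chain, was at 2089.2 ± 171.2 and 2028.2 ± 260.7 CPM (edgeR adjusted p = 0.908), *BSG*, which encodes the MMP inducer EMMPRIN, at 386.7 ± 79.8 and 465.6 ± 39.8 CPM (edgeR adjusted p = 0.41), and *TFPI2* at 99.1 ± 54.7 and 135.6 ± 50.3 CPM (edgeR adjusted p = 0.527, and 0.0131 with the block).

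Cathepsins and cystatins, the lysosomal proteases and their inhibitors, were listed together with *HPSE*. Of these, 0 of 12 tested genes were called with group only in edgeR (5 at an unadjusted p under 0.05). With the block 5 were higher and none lower. Over all genes tested, 22.5% had such an unadjusted p, and 11.7% were higher and 10.7% lower with the block. *CTSD*, cathepsin D, measured 432.8, 446.5 and 525.5 CPM against 873.2, 859.6 and 657.9 CPM (edgeR adjusted p = 0.0712, and 0.00851 with the block). *CSTB* was at 297.8 ± 45.2 and 285.5 ± 17.1 CPM (edgeR adjusted p = 0.846) and *CST3* at 99.5 ± 23.0 and 128.4 ± 20.3 CPM (edgeR adjusted p = 0.312).

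Genes of the AP-1, ETS and NF-kB families, known at MMP promoters, were listed together with *SP1* and *RUNX2*. Of these, 0 of 19 genes were called with group only in edgeR (4 at an unadjusted p under 0.05). With the block 1 was higher and 2 lower. Over all genes tested, 22.5% had such an unadjusted p, and 11.7% were higher and 10.7% lower with the block. *FOSL1*, the AP-1 subunit FRA1 and the most abundant of them per length, measured 593.6, 685.9 and 530.3 CPM with non-specific and 266.5, 379.6 and 318.1 CPM with paxillin siRNA. It was lower in all 3 pairs, as were 28.8% of all genes tested. Its log2 fold change was -0.91 ± 0.18 (edgeR adjusted p = 0.0573, and 0.00151 with the block). *JUND* was at 69.8 ± 14.2 and 65.5 ± 6.66 CPM (edgeR adjusted p = 0.791) and *JUNB* at 71.3 ± 18.1 and 82.3 ± 12.3 CPM (edgeR adjusted p = 0.575). *ETV5* was the other gene lower and *NFKBIA* the gene higher with the block.

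The genes whose levels ran most nearly parallel to *MMP1* over the 6 libraries, of 12120 compared, were *SLC38A2*, *CHD5* and *KIAA1715*, with a Pearson r of 0.999, 0.999 and 0.998 on log2 CPM. *MMP13* had an r of 0.971 with *MMP1*. For *TIMP1* they were *RNASET2*, *CYB5R1* and *MBOAT7*, at 0.997, 0.997 and 0.996, and *TIMP2* had an r of 0.662 with *TIMP1*. These are descriptions over 6 libraries that share a cell line and 2 treatments. *TIMP1* is listed at a locus shared with *ARAF* and *SYN1*, *TIMP2* with *LOC100653515* and *TIMP3* with *SYN3*. *SYN1* stayed at or below 0.331 CPM, *SYN3* at or below 0.0946 CPM, and *ARAF* lay between 77.9 and 96.6 CPM. Since no source here says whether counting used strand, reads of overlapping genes may not be separable.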

How the data were processed

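Transcripts were measured in 6 libraries, 3 per siRNA. The authors deposited estimated counts of fragments per gene and FPKM, per the file headers. Cufflinks 2.0.2, FastQC 0.10.1 and the build hg19 are named in the submitters' processing notes. The aligner, annotation and strand setting were not given in the sources used here. Each library of the estimated counts had been multiplied by 1 factor: 91.2% to 91.7% of values above 0 were whole multiples of a step within 0.05, and reads are values divided by that step. Listed starts were raised by 1, since 1899 loci matched their gene's length with starts from 0 and 253 with starts from 1.

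Rounded estimated counts went into edgeR 4.0.16 under R 4.3.3 (TMM scaling, filterByExpr, quasi-likelihood test, group only, two-sided), with Benjamini-Hochberg adjustment over 15876 genes and a threshold of 0.05. The SE is the log2 fold change divided by the square root of F. Deviations of same-numbered libraries correlated at 0.338, 0.431 and 0.562, all above 0.1, so a fit with the replicate number as a block was added. It is given where it changed a call. Libraries of different numbers correlated at -0.483 to 0.105, the highest also above 0.1. Deviations sum to 0 within a group, which links these values, and the labels do not say what a number stands for. Alternatives used DESeq2 1.42.0 and limma 3.58.1, the latter also on log2(FPKM + 1). The edgeR, limma and DESeq2 steps were tested on simulated data. The 9 genes and the lists were chosen with earlier results of these data known. The rule for naming list genes was to take those called with group only or, with none, the 3 with the highest mean FPKM. It was not followed for plasminogen activation, whose gene called with group only is not reported here. Other list genes, *MMP16* and *PLAT* among them, were named after their values were seen, and some genes of the lists are not reported here. The exact test used log2(CPM + 0.1). A value of 0 allows 3 reads, 0.0898 to 0.142 CPM, a floor that covers counting error alone.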

Additional observations from a re-analysis of the deposited data

How the results depend on the processing

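Counts of calls moved strongly with the fit. Over all genes, 188 were called with group only, against 3561 with the replicate block, 1595 by DESeq2, 303 without a filter on low counts, and 63, 33 and 0 by limma on log2(FPKM + 0.1), on log2(FPKM + 1) and on the latter without a filter, with 3565 at an unadjusted p under 0.05 in edgeR with group only. Leaving out 1 library gave 0 to 2440. Of the members, 0 were called with group only, 4 with the block, 1 by DESeq2 and 0 to 1 with a library left out. Of 92 tested genes in the related lists, 1 was called, against 31 with the block, 10 by DESeq2, 2 without a filter on low counts, 0 by limma on unfiltered FPKM and 0 to 18 with a library left out. With the block and pair 1, 2 or 3 left out, an alternative chosen after seeing the data, 455, 1336 and 4885 genes, 1, 2 and 4 members and 5, 14 and 39 list genes were called.

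The sign of *MMP1*, *MMP9*, *MMP13*, *MMP14*, *MMP15* and *TIMP1* was the same in every alternative in which each was tested. That of *TIMP2* turned to -0.01 without non-specific siRNA replicate 2 and to -0.02 without paxillin siRNA replicate 3, in a range of -0.02 to 0.29 with 1 library left out. *CSTB* turned to 0.01 with the block without pair 2 and 0.05 without non-specific siRNA replicate 2, *ITGB1* to 0.01 with the block without pair 2, 0.01 without non-specific siRNA replicate 3 and 0.03 without paxillin siRNA replicate 1, and *JUND* to 0.10 with the block without pair 1 and 0.01 without non-specific siRNA replicate 1. With 1 library left out, *CSTB* ranged from -0.16 to 0.05, *ITGB1* from -0.16 to 0.03 and *JUND* from -0.25 to 0.01. *MMP9* ranged from 0.12, on log2(FPKM + 1) without a filter, to 1.61. The causes of these shifts were not tested. Depth limits *MMP2*, *TIMP3*, *MMP9* and *MMP7*.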

Other observations

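The balance between the 2 abundant inhibitors also differed between the libraries. *TIMP1* over *TIMP2*, as a ratio of FPKM, was 2.37, 1.77 and 1.74 in paxillin siRNA replicates 1 to 3, against 1.26, 1.28 and 1.38 in those of the other siRNA. The groups did not overlap. Since *TIMP1* also enters the ratios given above, *TIMP1* over *TIMP2* is not a separate result. This ratio varied less among the non-specific libraries (SD 0.0628) than among the paxillin ones (SD 0.359). The ratio of the 2 collagenases, *MMP13* over *MMP1*, was 0.343, 0.264 and 0.280 against 0.429, 0.402 and 0.327, so *MMP13* made up more of the pair in each paxillin library than in the non-specific library of its number, with overlapping groups. No test was made of these ratios.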
